A study of Mus musculus with 6 samples.

Results

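The 10 genes described here build or specify the skeletal tissues that enclose the cochlea. They were taken by symbol from the 24411 genes of each count table. Acan, Comp, Matn1, Matn3 and Hapln1 encode proteins of the cartilage matrix. Ibsp and Spp1 encode acidic proteins of the bone matrix, Alpl encodes the alkaline phosphatase of mineralizing cells, and Runx2 and Sp7 encode the transcription factors of the osteoblast. All 10 symbols were found, and 8 passed the filter on low counts, while Comp and Matn3 did not.

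RNA was sequenced from the cochlea of Kir2.1-OE mice and littermate controls at postnatal day 9, with 3 pools per group and 8 cochleae from 4 mice in each pool. Both groups carried 1 copy of Otof-rtTA on the C57BL/6N background and drank doxycycline (DOX) at 0.5 mg/ml. The Kir2.1-OE mice also carried the DOX-responsive Kir2.1 transgene, whereas the controls, given as WT in the labels, did not. The Otof promoter drives the transactivator mainly in inner hair cells (IHCs), so the transgene was targeted to a few cells of the tissue, and the comparison addressed how the tissue's transcripts differed when IHCs overexpressed this inward rectifier K+ channel.

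In cartilage, aggrecan forms large aggregates with hyaluronan, held by link proteins such as HAPLN1, between collagen fibrils to which matrilins and COMP bind. In bone, RUNX2 acts upstream of SP7 to commit osteoblasts, which deposit collagen I, remove the mineralization inhibitor pyrophosphate with alkaline phosphatase and secrete matrix proteins such as bone sialoprotein (IBSP) and osteopontin (SPP1). The cochlea develops inside a cartilage capsule that ossifies after birth, together with the bony core, the modiolus. Osteopontin is also made outside bone.

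The libraries held between 35430940 and 41205047 reads assigned to genes. Values below are normalized counts, that is counts scaled to the same library size, and with 3 pools against 3 an exact two-sided permutation test of 1 gene cannot go below p = 0.10. A gene was called higher or lower at an adjusted p under 0.05 together with a fold change above 1.5, from the quasi-likelihood test of edgeR over 15303 genes, with p-values adjusted by the Benjamini-Hochberg method. Kcnj2, which encodes Kir2.1, was at 3213 ± 872 in Kir2.1-OE and 229.9 ± 5.16 in controls (mean ± SD, n = 3 each) and every Kir2.1-OE pool was above every control. All 10 hair cell markers were detected, with a summed level of 58563 to 62586 in controls and 67615 to 74012 in Kir2.1-OE. The labels give the tissue as cochlea, the series' design text as sensory epithelium, and the bone genes below were read from the same RNA. In such bulk samples fewer cells of a type and less RNA per cell cannot be told apart. Control replicate 1 stood apart from the other libraries in bone genes, in some other lists and in erythrocyte markers, as given below. Values without that library therefore stand beside the main results.

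Of the 8 tested members, Acan was higher in Kir2.1-OE and none was lower, which is 1 of 8 beside 20.5% of all genes tested called in either direction, 15.5% higher and 5.08% lower. DESeq2 likewise called 1 higher and 0 lower, and at an unadjusted p under 0.05 edgeR had Acan and Hapln1 above the controls and Matn1 below them. The 3 Kir2.1-OE pools lay above all controls for Acan and Alpl, a pattern seen in 31.7% of all genes tested. They lay below all controls for Matn1, as did 29.9% of all genes. None of the 5 bone members was called by edgeR or DESeq2, and 0 had an unadjusted p under 0.05. They had a median log2 fold change of 0.45 with all libraries and 0.19 without control replicate 1, against 0.01 for all genes in either case.

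**Figure D1:**
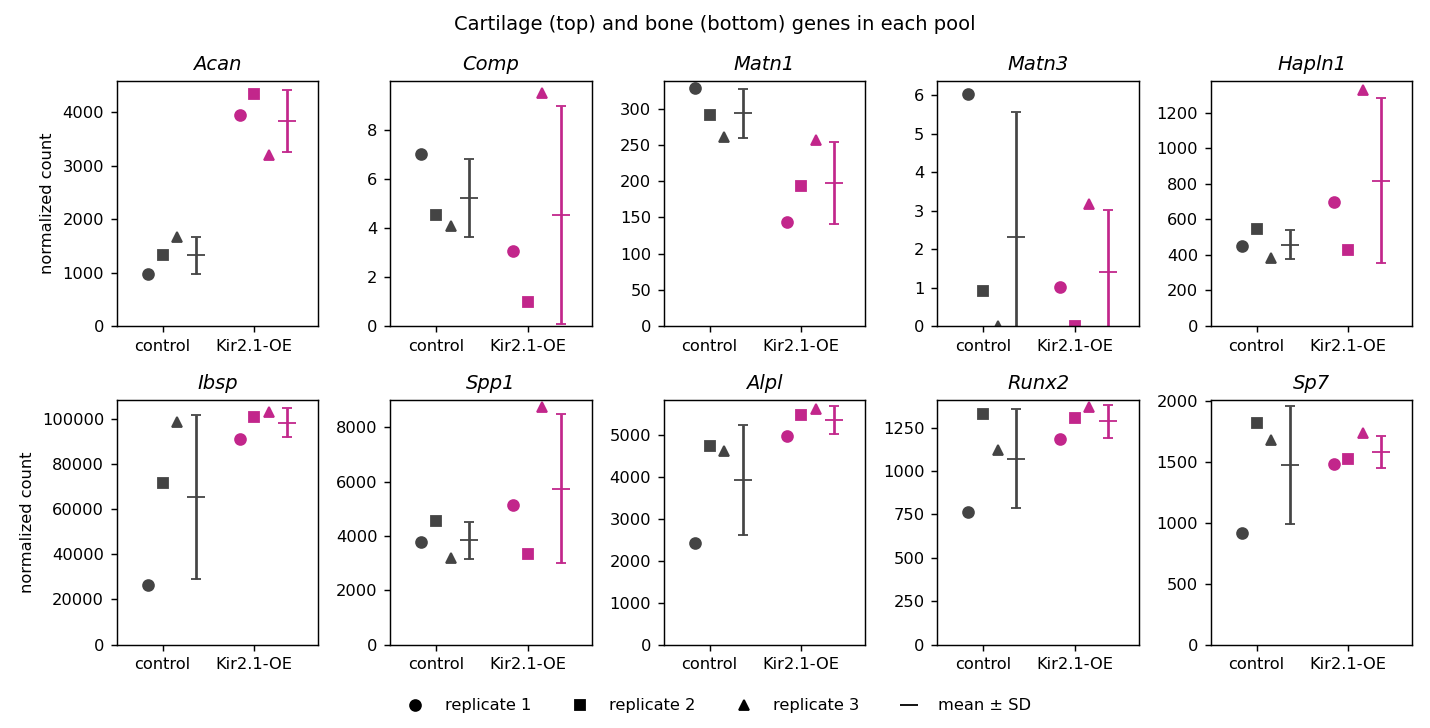
Normalized counts (linear axes from 0) of the 10 members in the control pools (grey) and the Kir2.1-OE pools (magenta), with marker shape giving the replicate and bars the mean ± SD of 3 pools. For Acan the Kir2.1-OE pools sit between 3200 and 4346, all above the controls. Control replicate 1 is the lowest pool for Acan, Ibsp, Alpl, Runx2 and Sp7.

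Acan (chromosome 7, 79053483 to 79115099, plus strand, mm10) encodes aggrecan, the main proteoglycan of cartilage. Its normalized counts were 3935, 4346 and 3200 in the 3 Kir2.1-OE pools and 974.2, 1332 and 1656 in the controls. The lowest Kir2.1-OE pool was thus above the highest control. The means differed 2.90-fold, a log2 fold change of 1.54 (SE 0.178, 95% interval 1.13 to 1.94, adjusted p = 0.000235, exact permutation p = 0.1). Without control replicate 1 the log2 fold change was 1.36 and Acan was still the 1 member called, beside 13.6% of all genes called higher and 3.95% called lower.

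The longest Acan transcript has 7355 nucleotides, and transcript length moved with the fold change across these libraries, with a Spearman's rho of 0.557 over 15197 genes, which are not independent replicates. Among the 1289 tested genes with transcripts of 6000 to 8000 nucleotides, 44.5% were called higher and the median log2 fold change was 0.54. With offsets for length and GC content, the log2 fold change of Acan was 0.72 (adjusted p = 0.0121), and Acan and Spp1 were the 2 members called, beside 6.4% of all genes higher and 3.47% lower. With the offsets and without control replicate 1, it was 0.56 (adjusted p = 0.0213), under the 1.5-fold limit. Ibsp (0.43) and Runx2 (-0.49) also had an adjusted p under 0.05 in that fit but not a 1.5-fold change, so that 0 members were called beside 4.66% of all genes higher and 2.43% lower. The study had picked Acan from these same libraries as a target of SOX9, so its direction is not independent evidence.

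The aggrecan promoter is shown because Acan was the only member called.

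Acan promoter, chr7:79052976-79053275, plus strand: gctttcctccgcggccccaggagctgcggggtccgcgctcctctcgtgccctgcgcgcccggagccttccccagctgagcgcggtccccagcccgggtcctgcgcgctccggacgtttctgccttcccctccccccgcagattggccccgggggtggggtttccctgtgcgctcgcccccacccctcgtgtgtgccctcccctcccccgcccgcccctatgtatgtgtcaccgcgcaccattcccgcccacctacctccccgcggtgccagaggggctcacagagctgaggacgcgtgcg

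All promoters here are the 250 bases before and 50 after a RefSeq transcript start in GRCm38.p6, written 5′ to 3′ on the gene's strand, with capitals reserved for the RUNX core, ACCACA or its reverse complement TGTGGT. RefSeq starts were matched for 8 of the 10 members, not for Comp and Sp7. The Acan window holds neither the RUNX core nor the SOX core ACAAAG or its reverse complement CTTTGT, which occur in 16.8% and 18.7% of 32851 promoters of this length. It also lacks the homeodomain core TAATTA, found in 5.29% of them.

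Hapln1 (chromosome 13, 89539796 to 89611652, plus strand) encodes the cartilage link protein. It had 696.9, 424.7 and 1329 normalized counts in Kir2.1-OE and 449.5, 543.4 and 379.7 in the controls. The groups overlapped, and Kir2.1-OE replicate 3 was far above the other 5 libraries. The log2 fold change was 0.83 (SE 0.339, 95% interval 0.07 to 1.60) and did not pass the test (adjusted p = 0.0655). Without Kir2.1-OE replicate 3 it was 0.28 (adjusted p = 0.302), and without Kir2.1-OE replicate 2 it was 1.12 (adjusted p = 0.00646), which would be called. The summed neuron markers had the same order of pools within each group, with 35707, 25609 and 48049 in Kir2.1-OE and 19445, 22124 and 15492 in controls. Their part in the Hapln1 values was not tested.

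Matn1 (chromosome 4, 130944385 to 130955475, plus strand) encodes matrilin 1, an adaptor of the cartilage matrix. Its counts were 143.7, 192.9 and 257.1 in Kir2.1-OE against 329.1, 291.7 and 260.6 in the controls. The groups did not overlap, although Kir2.1-OE replicate 3 and control replicate 3 were nearly level. The log2 fold change of -0.57 (SE 0.205, 95% interval -1.03 to -0.11) had an adjusted p of 0.0416, but fell short of a 1.5-fold change. Leaving out either of these libraries made Matn1 a call, at -0.81 without the Kir2.1-OE pool and -0.65 without the control. Its adjusted p was 0.116 without control replicate 1 and 0.0796 without control replicate 2. It was 0.112 without Kir2.1-OE replicate 1, 0.0799 without Kir2.1-OE replicate 2 and 0.0832 with the length and GC offsets, so Matn1 was not called in these fits. Acan and Matn1 thus went opposite ways, and of all pairs of tested members their profiles over the 6 libraries were the farthest apart, at a root mean square distance of 1.18 log2 units.

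Comp and Matn3 encode a thrombospondin family protein and a matrilin of growth plate cartilage. Comp had 3, 1 and 9 counts in Kir2.1-OE and 7, 5 and 4 in the controls, before scaling. Matn3 had 1, 0 and 3 counts in Kir2.1-OE and 6, 1 and 0 in the controls. Both were near the limit of detection, for which 3 counts of the smallest library, or 8.47e-06% of its reads, is the floor that a count of 0 allows, covering counting error only. A difference between groups was not detectable for either gene at this depth.

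Ibsp (chromosome 5, 104299171 to 104311469, plus strand) encodes bone sialoprotein, an early marker of mineralizing osteoblasts. It took between 0.071% and 0.275% of all assigned reads. Its normalized counts were 91280, 100691 and 103173 in Kir2.1-OE and 26529, 71540 and 98515 in the controls. The Kir2.1-OE pools were close to each other, the controls spanned a wide range and control replicate 1 was the lowest of all. The groups overlapped, and the log2 fold change of 0.59 (SE 0.357, 95% interval -0.22 to 1.39) did not pass the test (adjusted p = 0.196). It was 0.21 without control replicate 1 (adjusted p = 0.242) and 1.00 without control replicate 3 (adjusted p = 0.0358).

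Spp1 (chromosome 5, 104435118 to 104441050, plus strand) encodes osteopontin, which binds integrins and CD44. It had 5153, 3333 and 8731 normalized counts in Kir2.1-OE and 3769, 4549 and 3172 in the controls, so that Kir2.1-OE replicate 3 was the highest and the groups overlapped. The log2 fold change was 0.58 (SE 0.287, 95% interval -0.06 to 1.23, adjusted p = 0.117). It was 0.13 without Kir2.1-OE replicate 3, and it was called without Kir2.1-OE replicate 2 (0.83, adjusted p = 0.0117) and with the length and GC offsets (0.89, adjusted p = 0.028). Unlike the other bone members, Spp1 was not low in control replicate 1, where it was level with the other controls (their mean was 1.02 times its value). Its profile was nearer to Hapln1 (0.128 log2 units) than to any bone member. Within each group Spp1 shared the order of pools with the summed neuron markers, whose part was again not tested. The exons of Spp1 overlap an unnamed transcript, Gm42793, on the same strand, which is no row of the tables.

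Alpl (chromosome 4, 137741733 to 137796384, minus strand) encodes tissue-nonspecific alkaline phosphatase. Its counts were 4979, 5460 and 5604 in Kir2.1-OE and 2408, 4729 and 4607 in the controls. The groups did not overlap, but the gap between them was small beside the distance of control replicate 1 from the other controls. The log2 fold change of 0.45 (SE 0.210, 95% interval -0.02 to 0.92) did not pass the test (adjusted p = 0.101), and it was 0.19 without control replicate 1 (adjusted p = 0.0895).

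Runx2 (chromosome 17, 44495987 to 44814797, minus strand), the master regulator of osteoblasts, had 1183, 1304 and 1370 normalized counts in Kir2.1-OE and 762.5, 1329 and 1121 in the controls. Sp7 (chromosome 15, 102356606 to 102367182, minus strand), the zinc finger factor osterix that acts after Runx2, had 1483, 1530 and 1736 against 918, 1824 and 1684. For both genes only control replicate 1 lay clearly apart, below the other 5 libraries. The log2 fold changes were 0.26 for Runx2 (95% interval -0.12 to 0.64, adjusted p = 0.223) and 0.10 for Sp7 (95% interval -0.37 to 0.57, adjusted p = 0.713). Both directions turned in other fits, where Runx2 was at -0.30 with the length and GC offsets and Sp7 at -0.15 without control replicate 1. An antisense RNA, Runx2os1, overlaps Runx2 exons. As the strand setting of the counting is not given in the sources used here, some of its reads may have been counted for Runx2.

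**Figure D2:**
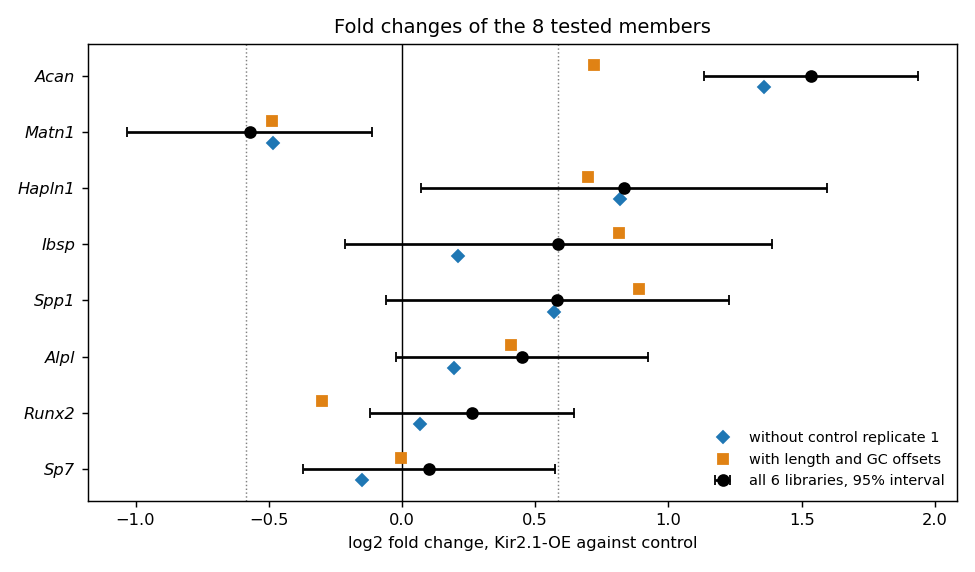
Log2 fold change of Kir2.1-OE against control for the 8 tested members, with all 6 libraries (circles, bars are 95% intervals), without control replicate 1 (diamonds) and with length and GC offsets (squares); dotted lines mark a 1.5-fold change. The interval of Acan runs from 1.13 to 1.94, those of the 5 bone members include 0, and Runx2 and Sp7 change sign between settings.

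The promoters of 3 bone members are shown because RUNX2 is itself a member. Of these genes, Ibsp and Runx2 were low in control replicate 1 and Spp1 was not. Alpl was low there too, and its windows are described below but not printed.

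Ibsp promoter, chr5:104299037-104299336, plus strand: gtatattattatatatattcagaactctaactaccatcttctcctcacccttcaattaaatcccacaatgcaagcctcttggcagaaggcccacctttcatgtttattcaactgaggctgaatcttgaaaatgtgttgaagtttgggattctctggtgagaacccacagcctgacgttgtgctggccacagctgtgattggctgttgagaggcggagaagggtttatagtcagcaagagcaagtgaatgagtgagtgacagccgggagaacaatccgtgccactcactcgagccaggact
Spp1 promoter, chr5:104434861-104435160, plus strand: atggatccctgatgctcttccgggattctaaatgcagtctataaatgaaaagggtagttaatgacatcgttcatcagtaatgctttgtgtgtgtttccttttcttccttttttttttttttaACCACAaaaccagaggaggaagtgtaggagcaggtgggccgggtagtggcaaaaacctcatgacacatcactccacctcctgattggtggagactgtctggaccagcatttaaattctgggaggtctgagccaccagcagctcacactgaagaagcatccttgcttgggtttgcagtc
Runx2 promoter, chr17:44814578-44814877, minus strand: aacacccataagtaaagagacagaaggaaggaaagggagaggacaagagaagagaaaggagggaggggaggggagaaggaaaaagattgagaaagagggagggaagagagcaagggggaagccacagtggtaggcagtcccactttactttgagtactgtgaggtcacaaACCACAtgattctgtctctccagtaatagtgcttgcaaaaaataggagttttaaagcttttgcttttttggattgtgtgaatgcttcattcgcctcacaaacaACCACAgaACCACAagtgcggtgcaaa

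The Runx2 window holds the RUNX core 3 times, starting at positions -80, 24 and 32 from the transcript start. The Spp1 window printed above holds it once, at -128, whereas the window at another Spp1 start, not printed, lacks it. The Ibsp window holds none, nor do the windows at both Alpl starts, whereas those of Matn1 and Hapln1 hold 1 each, at -134 and -160. These matches describe letters in a short window and are not evidence of binding.

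Control replicate 1 differed from the other controls in most bone genes. Control replicate 1 was the lowest of the 6 libraries for 4 of the 5 bone members, 13 of 18 other genes of bone matrix and mineral and 8 of 9 skeletal collagens, against 23.3% of all genes tested. It was also the lowest for 4 of 5 glia markers, 8 of 11 chondrocyte regulators and 15 of 25 osteoblast regulators. Among cartilage genes it was the lowest for Acan and for 10 of 24 other matrix genes. By contrast, it was the lowest for 1 of 10 hair cell markers and 0 of 6 neuron markers. The mean of the other 2 controls was 3.21 times its value for Ibsp and a median of 1.91 times over the bone members, 1.93 times over the other bone genes and 0.998 times over all genes. For Bglap, which encodes osteocalcin, the ratio was 5.24, although its reads cannot be fully separated from those of the near-identical Bglap2 and Bglap3. The erythrocyte markers went the other way, with a summed level of 44665 in control replicate 1, 17951 and 17918 in the other controls and 10855 to 13789 in Kir2.1-OE. All 5 erythrocyte genes were highest in that library. Whether these values had a part in the low bone genes was not tested.

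**Figure D3:**
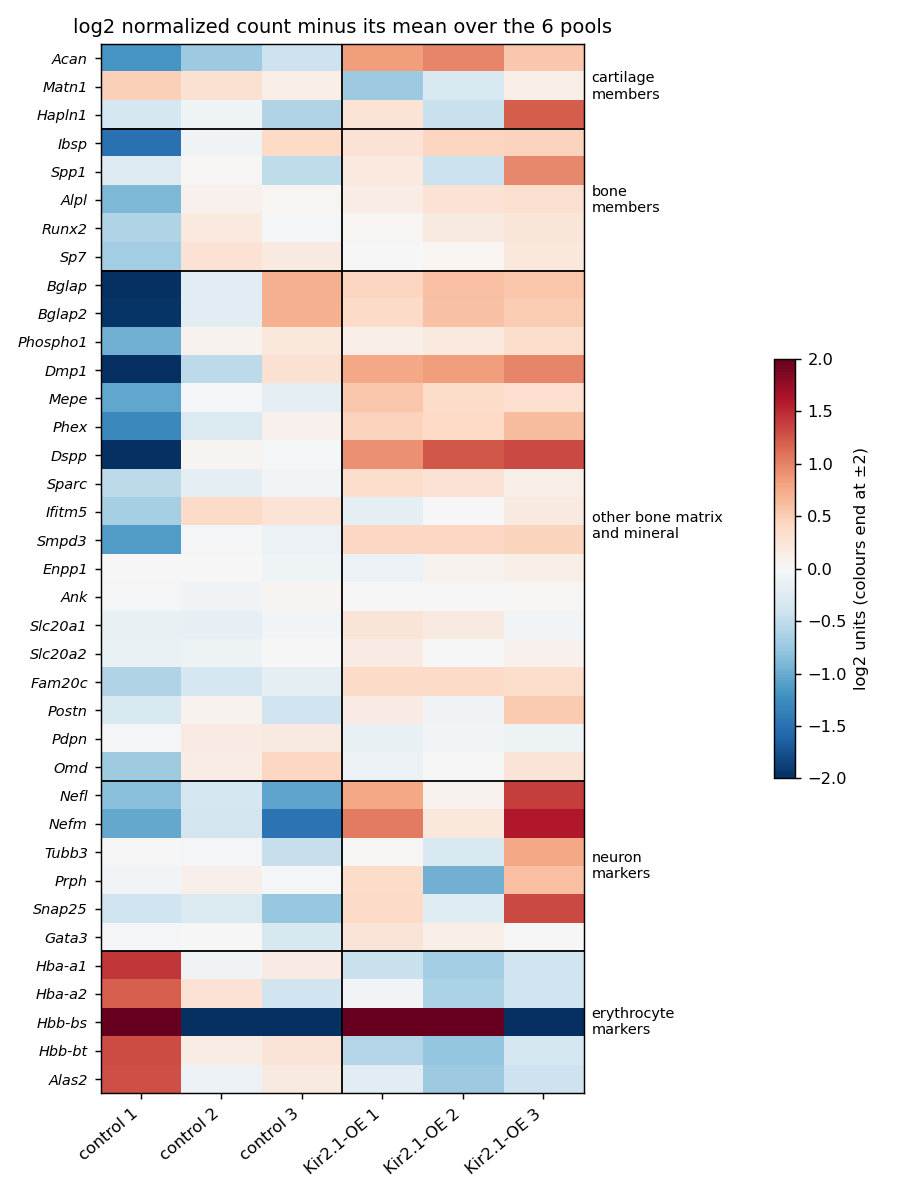
Log2 normalized counts (pseudocount 0.5) of members, other bone genes, neuron markers and erythrocyte markers in each library, minus the mean of the gene over the 6 pools; red is above and blue below that mean, and colours end at 2 log2 units. Control 1 is blue for most bone genes and red for the erythrocyte markers, and Kir2.1-OE 3 is red for Hapln1, Spp1 and most neuron markers.

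Levels were compared between genes as normalized counts per kb of the longest transcript. In controls, Ibsp was the most abundant member at 31687 ± 17586 per kb (SD, n = 3), followed by Spp1 at 2541 ± 458, Alpl at 1552 ± 518 and Sp7 at 476.3 ± 157. Acan (179.6 ± 46.4), Runx2 (165.7 ± 44.4) and Matn1 (146.8 ± 17.1) came next, and the ranges of neighbours in this trio overlapped. Hapln1 was at 80.05 ± 14.4 per kb, and Comp and Matn3 were at 2.16 and 0.77 with overlapping ranges. Even in control replicate 1, the lowest for bone genes, Ibsp was at 12828 per kb, above every other member. In Kir2.1-OE pools the order was the same down to Alpl, with overlapping ranges of Spp1 and Alpl, after which Acan at 520.3 ± 78.9 per kb stood level with Sp7 at 511.1 ± 43.4.

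Ibsp and Spp1 lie in a cluster of secreted acidic phosphoproteins of bone and tooth on chromosome 5, in the order Dspp, Dmp1, Ibsp, Mepe, Spp1. Dmp1, an osteocyte protein whose gene ends 85068 bases before Ibsp, had 8939, 9262 and 10267 normalized counts in Kir2.1-OE pools and 998.3, 3644 and 6469 in the controls. All Kir2.1-OE pools were above the controls, as for 31.7% of all genes tested. Dmp1 had a log2 fold change of 1.36 (SE 0.484, adjusted p = 0.0404) and remained called without control replicate 1 (0.91, adjusted p = 0.00707). DESeq2 did not call it (adjusted p = 0.102), nor did edgeR when any 1 of the Kir2.1-OE pools was left out (adjusted p from 0.0699 to 0.0946) or control replicate 2 (adjusted p = 0.089). Mepe, another osteocyte protein, was higher with all libraries (0.78, adjusted p = 0.0277) but it was at 0.53 without control replicate 1, under the 1.5-fold limit, and its adjusted p was 0.101 without Kir2.1-OE replicate 1 and 0.0546 without Kir2.1-OE replicate 2. Dspp, the dentin protein, stayed under 14 counts in every library and did not pass the test (adjusted p = 0.0538). Of the 5 tested neighbours outside the cluster, Sparcl1, a SPARC-like protein before it, was higher at 1.00, as was BC005561 after it at 1.87. The other neighbours were not called, with Hsd17b11 at -0.19 (adjusted p = 0.0583), Nudt9 at 0.04 (adjusted p = 0.689) and Pkd2, the polycystin channel, at 0.32 (adjusted p = 0.021, under the fold limit).

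**Figure D4:**
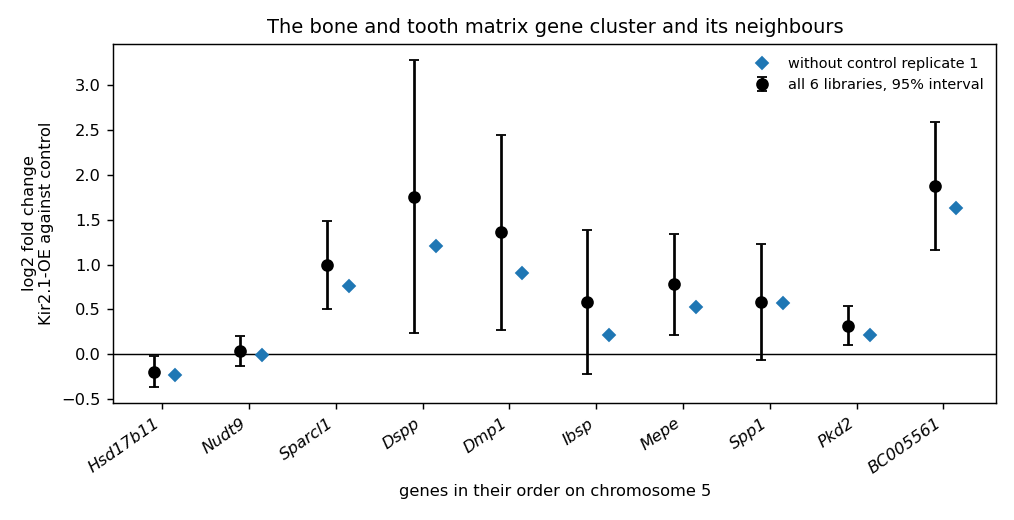
Log2 fold change of Kir2.1-OE against control for the genes around Ibsp and Spp1, in their order on chromosome 5 and not to scale of distance, with all 6 libraries (circles, bars are 95% intervals) and without control replicate 1 (diamonds). Leaving out that library lowers the value of Dmp1 from 1.36 to 0.91 and that of Ibsp from 0.59 to 0.21, while Spp1 stays near 0.58.

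The counts of each list below stand beside 15.5% of all genes tested called higher and 5.08% called lower. Of 24 other cartilage matrix genes tested, 7 were higher and 1 was lower, with a median log2 fold change of 0.10. The counts were 5 and 1 without control replicate 1, and 4 and 0 with the length and GC offsets. The largest changes were in Hapln4 (1.57, adjusted p = 0.00413), Bcan (1.32, adjusted p = 0.000237) and Cilp (1.30, adjusted p = 0.00881), a protein of the cartilage intermediate layer, followed by Ncan (1.21, adjusted p = 0.0301). Hapln4, Bcan and Ncan encode a link protein and lecticans best known from the matrix of the nervous system. Together with Acan, 3 of the 4 lecticans were higher, and the fourth, Vcan, was at 0.25 (adjusted p = 0.276), a family grouped after its values were seen. Ncan was not called without Kir2.1-OE replicate 3 (0.83, adjusted p = 0.102). Clec3a, a cartilage lectin, was lower at -0.67, but lost the call without Kir2.1-OE replicate 1 (-0.53), control replicate 1 (-0.48) or control replicate 2 (adjusted p = 0.0512). The most abundant gene of this list per kb was Epyc, a small proteoglycan also used here as a supporting cell marker, at -0.34 and under the fold limit.

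Of 10 small leucine-rich proteoglycans, which coat collagen fibrils, 0 were called by edgeR and 0 by DESeq2, while at an unadjusted p under 0.05 edgeR had 1 above and 3 below the controls. Their median log2 fold change was -0.18, with Lum at -0.49 (adjusted p = 0.000779) and Dcn at -0.41 (adjusted p = 0.00586), both under 1.5-fold. For both, every Kir2.1-OE pool was below the controls, as for 29.9% of all genes tested. Without control replicate 2, 1 of them was called lower. Of 22 genes of hyaluronan and chondroitin sulfate synthesis, 5 were higher and 0 lower by edgeR, beside 15.5% and 5.08% of all genes. DESeq2 had 0 lower, and at an unadjusted p under 0.05 edgeR had 5 below the controls. The largest changes were in Chst3 (1.06), Slc35d1 (1.01) and Xylt1 (0.97), which sulfate the chains, carry nucleotide sugars and start the chains. With the length and GC offsets, 1 was higher and 1 lower, beside 6.4% and 3.47% of all genes.

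Among 11 chondrocyte regulators, Sox5 (0.88), Trps1 (0.74) and Sox9 (0.62) were higher and none was lower, beside 15.5% and 5.08% of all genes. SOX9 together with SOX5 is known to activate Acan and Col2a1. Sox9 itself had 6563, 6172 and 5757 normalized counts in Kir2.1-OE and 3844, 4210 and 4019 in the controls, and is also made by supporting cells. Sox9 was called neither without Kir2.1-OE replicate 1 (0.56) nor without control replicate 1 (0.58), values under the fold limit, and without the latter 1 of the 11 was called lower. With the offsets Sox5, Trps1 and Sox9 were at 0.43, 0.42 and 0.45, under that limit as well. Of 9 skeletal collagens 5 were higher, with Col11a2 at 1.36, Col11a1 at 1.24 and Col2a1 at 1.02. Without control replicate 1, 3 were called, beside 13.6% of all genes called higher. With the offsets 1 was called, beside 6.4%.

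Of 18 other genes of bone matrix and mineral, 5 were higher and none was lower, beside 15.5% and 5.08% of all genes. Their median was 0.46. Besides Dmp1 these included Phex, the endopeptidase that acts in phosphate balance (0.89), and Mepe (0.78), with Smpd3 at 0.77 and Fam20c at 0.74. The count of those higher was 3 without control replicate 1, when the median was 0.23, 1 without Kir2.1-OE replicate 1, 3 without Kir2.1-OE replicate 2, 8 without control replicate 3 and 3 by DESeq2. At an unadjusted p under 0.05, edgeR had 1 of them below the controls. The osteocalcin gene Bglap had a log2 fold change of 0.67 that did not pass the test (adjusted p = 0.283), and Sparc, the most abundant of this list per kb, was at 0.49 (adjusted p = 0.00923), under the fold limit.

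Of 25 osteoblast regulators, 6 were higher and 1 was lower, beside 15.5% and 5.08% of all genes. Runx1 (0.97) and the Wnt co-receptor Lrp6 (0.89) were among those higher, while the signal Bmp4 was lower (-0.74, adjusted p = 0.000555). All Kir2.1-OE pools lay below the controls for Bmp4, as for 29.9% of all genes tested. With the offsets 2 were higher and 1 lower, beside 6.4% and 3.47% of all genes. Runx1, Lrp6 and Bmp4 are expressed in many cell types.

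Osteoclasts, the cells that resorb bone, are marked by Acp5, Ctsk, Calcr and Oscar, of which Acp5 and Ctsk were tested. Calcr and Oscar, like Dcstamp and Ocstamp, stayed under 7 normalized counts in all libraries. Of the 16 genes listed 10 were tested and 2 were higher, beside 15.5% of all genes. The list summed to 21287 to 22717 in Kir2.1-OE and 18904 to 22234 in the controls, which overlapped. Tnfrsf11a, the RANK receptor, was higher (1.11, adjusted p = 0.00363), as was Nfatc1 (0.65, but 0.58 without Kir2.1-OE replicate 1 and without Kir2.1-OE replicate 2), a factor used by many cells, while the acid phosphatase Acp5 was at 0.01 and cathepsin K (Ctsk) at 0.24, neither passing the test. Of 13 matrix proteases and inhibitors, Adamts9 was higher (0.66, and 0.56 without control replicate 3, under the fold limit) and Mmp13, a collagenase of hypertrophic cartilage, was lower (-1.27, adjusted p = 0.0381), though its groups overlapped and it was not called without control replicate 1 or 2 or without Kir2.1-OE replicate 1 or 2, with adjusted p between 0.081 and 0.14. Of 9 receptors that bind these matrix proteins, the integrin subunit Itga4 was higher (0.95) and no other was called with all libraries (3 were without control replicate 2), with the hyaluronan receptor Cd44 at 0.40 (adjusted p = 0.00855) and Itgav at 0.55 (adjusted p = 0.000471), both under the fold limit.

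The most abundant genes per kb of the remaining lists were not among those called. B3gat3, which builds the linker of the sugar chains, was at -0.20, the parathyroid hormone receptor Pth1r at -0.09 and the carbonic anhydrase Car2 at -0.14 on the log2 fold change scale. The gelatinase Mmp2 was at 0.20 and the integrin subunit Itgb1 at 0.07.

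**Figure D5:**
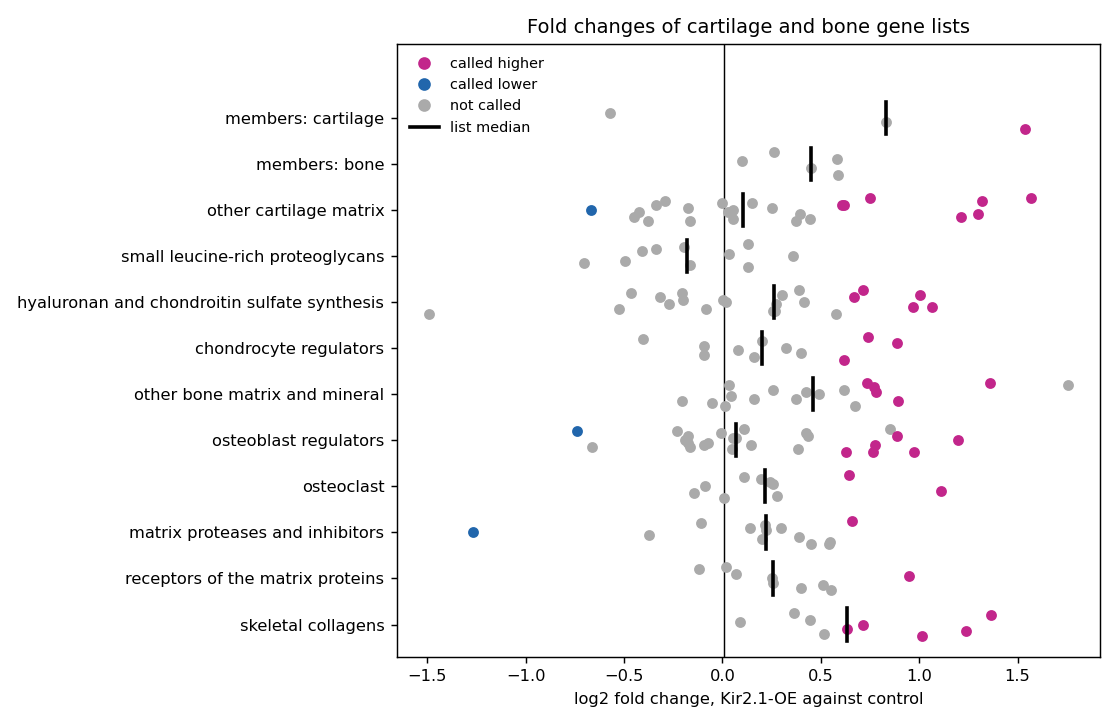
Log2 fold change of Kir2.1-OE against control for every tested gene of each cartilage and bone list, coloured by call, with the list median as a black bar and the median of all genes as the vertical line. Called genes sit mostly on the higher side, as they do over all genes tested (2365 higher, 778 lower). The skeletal collagens have the highest median among the lists of 9 or more genes, and the bone members hold no called gene.

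The genes with the profiles most like each member over the 6 libraries were found by the root mean square distance of log2 normalized counts among 13644 genes. Acan was nearest to Ptprb (0.0992 log2 units), Mical2 and Tns4. Hapln1 was nearest to Vsnl1 (0.0917), P2rx3 and Fgf12, and Spp1 to Spock3 (0.0745), Tagln3 and Serpini1. Ibsp was nearest to Prss35 (0.121), Bhmt and Slc13a5, and Alpl to 9130024F11Rik (0.0599), Krt23 and Bmp3. Runx2 was nearest to Slc8a3 (0.0686), 4632428N05Rik and Dio2, and Sp7 to Mef2c (0.058), Clic3 and Ifitm5, while Matn1 was nearest to Tm4sf5 (0.0517), 6330403K07Rik and Glipr2. Among the members themselves, Runx2 and Sp7 were the nearest pair at 0.121, followed by Hapln1 and Spp1 at 0.128 and by Alpl and Runx2 at 0.154. These distances rest on 6 libraries and include the difference between the groups.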

How the data were processed

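Poly(A) RNA of 6 cochlear pools was sequenced. The authors mapped the reads to mm10 with the nf-core RNA pipeline and deposited 1 table per pool of expected counts per gene from Salmon, of which 6.95% were not whole, and the strand setting is not given in the sources used here. The header of control replicate 1 carries the number 4, and the sample was taken from its title.

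Counts were rounded, filtered with filterByExpr (15303 genes kept), scaled with TMM and fitted in edgeR 4.0.16 (R 4.3.3) with a quasi-likelihood test. DESeq2 1.42.0, limma 3.58.1 and other scalings and filters were alternatives, as were per-gene offsets fitted on GC content and the length of the longest transcript. Only the edgeR quasi-likelihood test, with and without these offsets, was run on simulated data. Exact permutation tests used scipy 1.17.1. The libraries held 35430940 to 41205047 assigned reads. Nothing in the labels says more of the pools than that each held 8 cochleae of 4 mice, so p-values measure the spread between pools.

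Annotation was GENCODE for GRCm38, matched by symbol (23376 genes) or older symbol (669), with 366 unmatched. Named with values are the members, Kcnj2, up to 3 called genes of each list with the largest fold change and a mean of at least 50 normalized counts (Cilp included), the most abundant gene of each list per kb, and the 3 nearest profiles of each member. Other genes in the text were chosen after their values were seen. The members and the lists were chosen with earlier results of these data known. One gene that the naming rule would include is not reported here.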

Additional observations from a re-analysis of the deposited data

How the results depend on the processing

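The count of members called higher, 1 with all libraries, was 2 without the filter on low counts, 2 with the length and GC offsets, 2 with these offsets and the replicate block, 0 with the offsets and without control replicate 1, and 1 to 3 when 1 library was left out. Members called lower, 0 with all libraries, numbered 1 with upper quartile scaling, with limma-voom and with no fold change threshold, each time Matn1, and 0 to 1 when 1 library was left out. Over all genes, 2365 were higher and 778 lower. Those called higher were 980 with the offsets, 792 with offsets and block, 720 with the offsets and without control replicate 1, 832 with glmTreat, 4184 with no fold threshold and 1878 to 2527 with 1 library left out. Those called lower were 452 with offsets and block, 375 with the offsets and without control replicate 1, 57 with glmTreat, 3590 with no fold threshold and 536 to 1074 with 1 library left out. With upper quartile scaling the split was 1897 higher to 1378 lower. The cause of these changes was not tested. Runx2 reversed to -0.301 with the offsets, -0.277 with offsets and block and -0.486 with the offsets and without control replicate 1, and Sp7 to -0.00188, to -0.149 without control replicate 1 alone and to -0.249 with both, while leaving out 1 library gave Sp7 values from -0.149 to 0.283. The fit with offsets and without control replicate 1, and the counts of each list under the alternatives, were chosen after seeing the data.

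Same-numbered pools had correlations of -0.0944, -0.215 and -0.205, and differently numbered pools had correlations from 0.0157 to 0.174. The replicate numbers were therefore not used as pairs in the main fit. These few values cannot exclude a pairing of littermate pools under other numbers. With the replicate block 2220 genes were higher, 718 lower, and 1 and 0 of the members. Without Kir2.1-OE replicate 2, or without control replicate 3, further members were called (Hapln1 and Spp1 higher in the first case, Ibsp higher and Matn1 lower in the second). Among the members, depth limited Comp and Matn3.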

Other observations

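Markers of the other cell types in the tissue are given beside the 20.5% of all genes tested that were called in either direction. Of 6 neuron markers 3 were higher in Kir2.1-OE, and the summed level of 5 glia markers was 350915 to 461474 in Kir2.1-OE and 255655 to 325821 in the controls, with 1 of them called higher. Of 8 supporting cell markers 2 were higher, with a summed level of 214831 to 234558 in Kir2.1-OE and 249037 to 260131 in the controls. Fibrocyte markers summed to 291308 to 366327 in Kir2.1-OE and 265693 to 403141 in the controls, which overlapped, with 1 of 6 higher and 1 lower. Melanocyte and stria markers, of which 6 of 7 were tested, had 1 higher and 2 lower, while their summed level was 14044 to 16772 in Kir2.1-OE and 8575 to 10343 in the controls. Of 10 hair cell markers 4 were higher and 1 was lower, and 3 of 5 erythrocyte markers were lower. With the length and GC offsets 2 hair cell markers were higher and 0 lower, beside 6.4% and 3.47% of all genes. The lower call was also absent by DESeq2 and without replicate 1 or 2 of either group. Without control replicate 1, 1 erythrocyte marker was higher and 1 lower, and the highest log2 fold change among the 5 was 8.04. The lowest ratio of the other 2 controls to control replicate 1 among them was 0. Such a fold change can thus rest on controls without counts and is not a measured reversal. With the length and GC offsets 0 erythrocyte markers were called by edgeR, against 3 lower by DESeq2 without offsets. No macrophage marker of 7 was called by edgeR or DESeq2, at a summed level of 7662 to 8247 in Kir2.1-OE and 7248 to 7722 in the controls, and at an unadjusted p under 0.05 edgeR had 2 above and 1 below the controls. The part of these differences in the cartilage and bone values was not tested.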
